A study of Homo sapiens with 3 samples.

Results

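Calcineurin, the NFAT transcription factors it activates and the calcium entry that starts the pathway were followed through 10 genes, taken by symbol from a list: STIM1, ORAI1, ITPR1, PPP3CA, PPP3CB, PPP3CC, RCAN1, NFATC1, NFATC2 and NFATC3. All 10 had a row among the 17329 genes of the deposited table. The cells were Jurkat, an established human line from a T-cell acute lymphoblastic leukaemia, kept in RPMI 1640 with serum. For 48 hours they received standard medium (control), 50 mM of the lactate dehydrogenase inhibitor sodium oxamate (oxamate), or the same dose of oxamate together with L-sodium lactate at 10 mM (oxamate+lactate). The study asked how lactylation of histone H3 bears on transcription, and these libraries measure polyadenylated RNA only. Both treated media also carried added sodium, which the control lacked, so oxamate and the added sodium cannot be told apart here. The lactate was a sodium salt too, so lactate and its sodium cannot be told apart in oxamate+lactate against oxamate. There was 1 library per condition and 1 cell line, so differences could not be checked against replicates and carry no p-value or standard error.

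In a T cell, engagement of the antigen receptor activates phospholipase C gamma, whose product inositol trisphosphate opens receptors in the endoplasmic reticulum and empties its calcium store. The sensor STIM1 detects the emptied store and opens the plasma membrane channel ORAI1, and calcium flows in. Calcium and calmodulin then switch on calcineurin, a phosphatase built of a catalytic and a regulatory subunit, which dephosphorylates NFAT factors so that they enter the nucleus. This step is blocked by ciclosporin and tacrolimus, and RCAN1 is both an NFAT target and an inhibitor of calcineurin. Much of the pathway is controlled through calcium, phosphorylation and location, which RNA values do not show.

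RCAN1 and NFATC1 are textbook examples of genes with alternative starts of which 1 responds to NFAT, so their start regions are shown first. Of the 10 genes, 6 had windows in the RefSeq promoter table of build GRCh38.p14, 16 windows in all, each of 300 bases from 250 before to 50 after an annotated start. GGAAA, the core that NFAT proteins recognise and that also occurs in sites of other factors, was searched on both strands, where its reverse complement reads TTTCC. These 2 words do not overlap, and capitals mark each match. The first window is at the most upstream RCAN1 start, chr21:34615064-34615363 on the minus strand. The next lies 88291 bases downstream at an internal RCAN1 start, chr21:34526773-34527072 on the minus strand. It was picked because it held the most matches of the RCAN1 windows. The last is at the upstream NFATC1 start, chr18:79395680-79395979 on the plus strand.
RCAN1 upstream start: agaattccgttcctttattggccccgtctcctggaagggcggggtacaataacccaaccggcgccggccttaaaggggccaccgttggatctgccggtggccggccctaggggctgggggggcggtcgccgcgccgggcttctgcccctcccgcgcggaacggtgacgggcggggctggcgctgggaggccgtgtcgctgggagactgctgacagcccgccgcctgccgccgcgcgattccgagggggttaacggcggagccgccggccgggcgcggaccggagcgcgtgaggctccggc
RCAN1 internal start: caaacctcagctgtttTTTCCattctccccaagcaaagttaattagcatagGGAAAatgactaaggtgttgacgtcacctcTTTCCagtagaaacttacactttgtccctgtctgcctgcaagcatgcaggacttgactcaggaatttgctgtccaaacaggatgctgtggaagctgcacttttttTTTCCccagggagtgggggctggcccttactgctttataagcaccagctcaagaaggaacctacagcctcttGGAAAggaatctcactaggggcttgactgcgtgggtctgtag
NFATC1 upstream start: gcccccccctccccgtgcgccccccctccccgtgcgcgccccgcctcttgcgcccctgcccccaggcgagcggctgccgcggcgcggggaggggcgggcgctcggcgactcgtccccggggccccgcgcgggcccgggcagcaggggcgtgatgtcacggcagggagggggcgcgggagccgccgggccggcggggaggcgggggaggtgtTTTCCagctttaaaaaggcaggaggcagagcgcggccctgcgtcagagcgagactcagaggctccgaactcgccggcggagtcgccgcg

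The upstream RCAN1 window held 0 matches and the internal one 5, of which 2 read GGAAA and 3 read TTTCC. The remaining RCAN1 windows, not printed, held 0 or 1. At least 5 matches occurred in 0.74% of the 35116 windows of the table, and at least 1 in 61.2%. These shares are of single windows, so they do not measure how unusual a window picked as the highest of its gene is. The windows also differed in base composition, with a GC content of 74.0% upstream and 48.0% at the internal start. The NFATC1 window held 1 match at a GC content of 79.7%. Among the other windows, the more upstream of the NFATC2 pair held 3 matches, and at least 3 occurred in 9.94% of the table. A match is a description of the letters and not a bound site. Each gene had 1 value per library, so reads from its different starts were not separated in the values below.

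The deposited values, normalized read counts rounded to whole numbers, summed over genes to between 8171633 and 8821115 per library. Read numbers per library are not stated, which leaves the depth unknown and allows no counting intervals. Ratios are log2((value + 1)/(value + 1)) and were set beside those of the 12292 genes averaging at least 50 across libraries, a floor that all 10 genes passed. Spike-in RNAs of the ERCC set, added after extraction, measure the handling of RNA and not the spread between cultures. The 5 of them whose mean lay in the range of the 10 genes had ratios from -0.24 to 0.16 (SD 0.17) for oxamate against control. T-cell identity held, with CD3E between 4011 and 4488 normalized counts and all 12 T-cell markers listed, although the adaptor LAT had at most 23 and CD28 had 3 in control, 66 with oxamate and 20 with oxamate+lactate. Of the B-cell markers CD79A reached 76 and CD79B reached 7, and of the myeloid markers CD68 reached 19.

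The pathway genes as a group stayed close to the rest of the transcriptome. In bulk RNA, fewer cells with a transcript and less of it per cell cannot be told apart. In oxamate against control, 0 of the 10 reached 1.5-fold in either direction, a size that 7.48% of all genes reached upward and 3.98% downward (5.16% and 5.33% once centred on the median of all genes). Their median log2 ratio was 0.09, against 0.08 over all genes, and 5 of 10 lay above that median, where 50.0% of all genes do. At the smaller size of 1.2-fold, chosen after the values were seen, PPP3CC, ORAI1 and NFATC2 were higher and PPP3CA was lower, 3 and 1 of the 10, against 28.8% and 15.1% of all genes. The ratios of 5 of the 10 genes lay outside the range of the 5 ERCC RNAs, as did those of 54.2% of the 6493 genes whose mean lay between the lowest and highest of the 10.

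**Figure D1:**
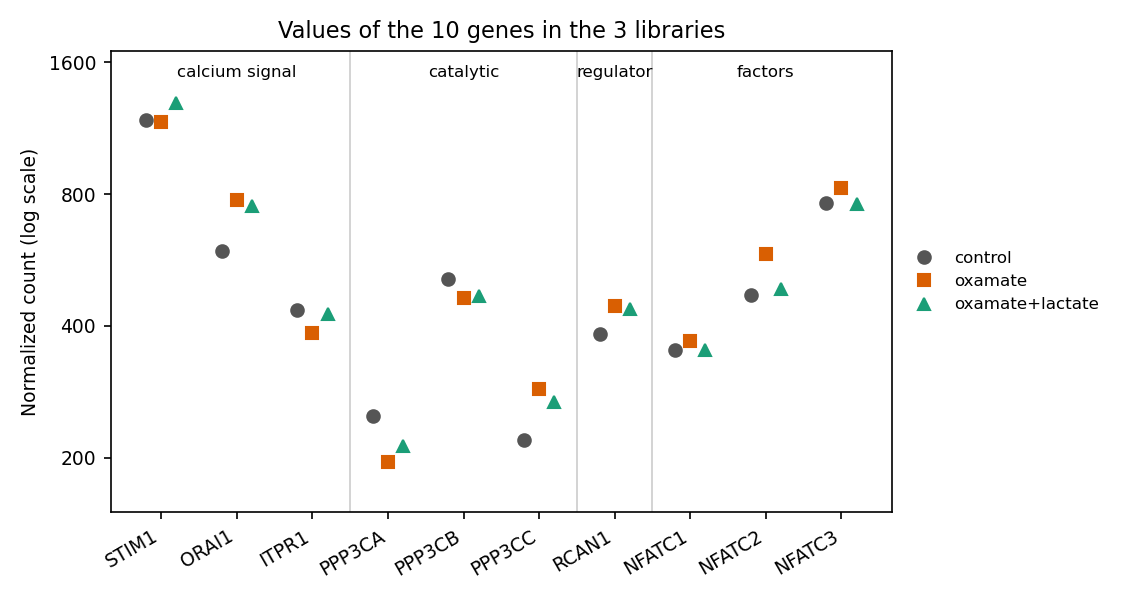
Normalized counts (log axis) of the 10 genes, ordered by role, with 1 point per library and no error bars since each condition had 1 library. STIM1 was at 1171 to 1291 in all libraries, ORAI1 and PPP3CC had their lowest value in control, and PPP3CA had its highest there.

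Among the genes of the calcium signal, the channel was above control in both treated libraries. The sensor was level with oxamate alone and highest with oxamate+lactate. Relative to genes of like GC content, the ratio for oxamate against control was 0.13 for the channel and -0.19 for the sensor. ORAI1, the pore of the store-operated channel, had 593 normalized counts in control, 774 with oxamate and 751 with oxamate+lactate. Control was thus the lowest of the 3, and the treated libraries were close to each other. The log2 ratio was 0.38 for oxamate against control, above that of 82.2% of genes, and 0.34 for oxamate+lactate against control. STIM1, the sensor, had 1179 in control, 1171 with oxamate and 1291 with oxamate+lactate. Its ratio of -0.01 for oxamate against control was near 0. Its highest value was in the library with lactate, at 0.14 against oxamate, above that of 90.1% of genes. ITPR1, an inositol trisphosphate receptor that releases stored calcium, had 434 in control, 385 with oxamate and 426 with oxamate+lactate. Oxamate alone was the lowest library for ITPR1, with ratios of -0.17 against control and 0.15 for oxamate+lactate against oxamate, while control and oxamate+lactate differed by only -0.03.

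The catalytic subunits of calcineurin differed from control in opposite directions. PPP3CA, the alpha isoform, had 249 normalized counts in control, 195 with oxamate and 213 with oxamate+lactate. Both treated libraries were below control, with log2 ratios of -0.35 for oxamate, lower than all but 10.6% of genes, and -0.22 for oxamate+lactate. PPP3CB, the beta isoform, had 513, 464 and 468 in the same order. It too was highest in control, by a smaller margin of -0.14 and -0.13 in the treated libraries. PPP3CC, the gamma isoform, had 219, 287 and 268. It differed in the other direction, with ratios of 0.39 and 0.29 against control, and the treated libraries were both above it. In oxamate against control the ratio of PPP3CC exceeded that of PPP3CA by 0.74 and that of PPP3CB by 0.53, and scaling whole libraries leaves these differences as they are. PPP3CC shares 10.3% of its annotated exon length with an antisense gene, and since the libraries carry no strand information, reads of the pair cannot be told apart.

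Values per kilobase of the longest annotated transcript allow a rough comparison of levels between genes, which depends on the length used. Per kilobase, the sum of the catalytic subunits was almost level at 300.0 in control, against 305 in oxamate and 302 in oxamate+lactate. PPP3CB made up 48.9% of that sum in control, 43.4% with oxamate and 44.3% with oxamate+lactate. PPP3CC made up 33.4%, 42.9% and 40.6%, and so came close to PPP3CB in both treated libraries. PPP3CA, the least abundant of the set, made up 17.7%, 13.6% and 15.1%. With merged exon length in place of the longest transcript, PPP3CC was above PPP3CB in oxamate, at 43.5% against 40.0%, and in oxamate+lactate, at 41.1% against 40.8%, and below it in control, at 33.7% against 45.0%. The regulatory subunit PPP3R1, which binds calcium, had 559, 575 and 612 normalized counts, a ratio of 0.04 for oxamate against control. PPP3R1 shares 20.8% of its exon length with an antisense gene and 13.7% with a coding gene on the same strand.

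**Figure D2:**
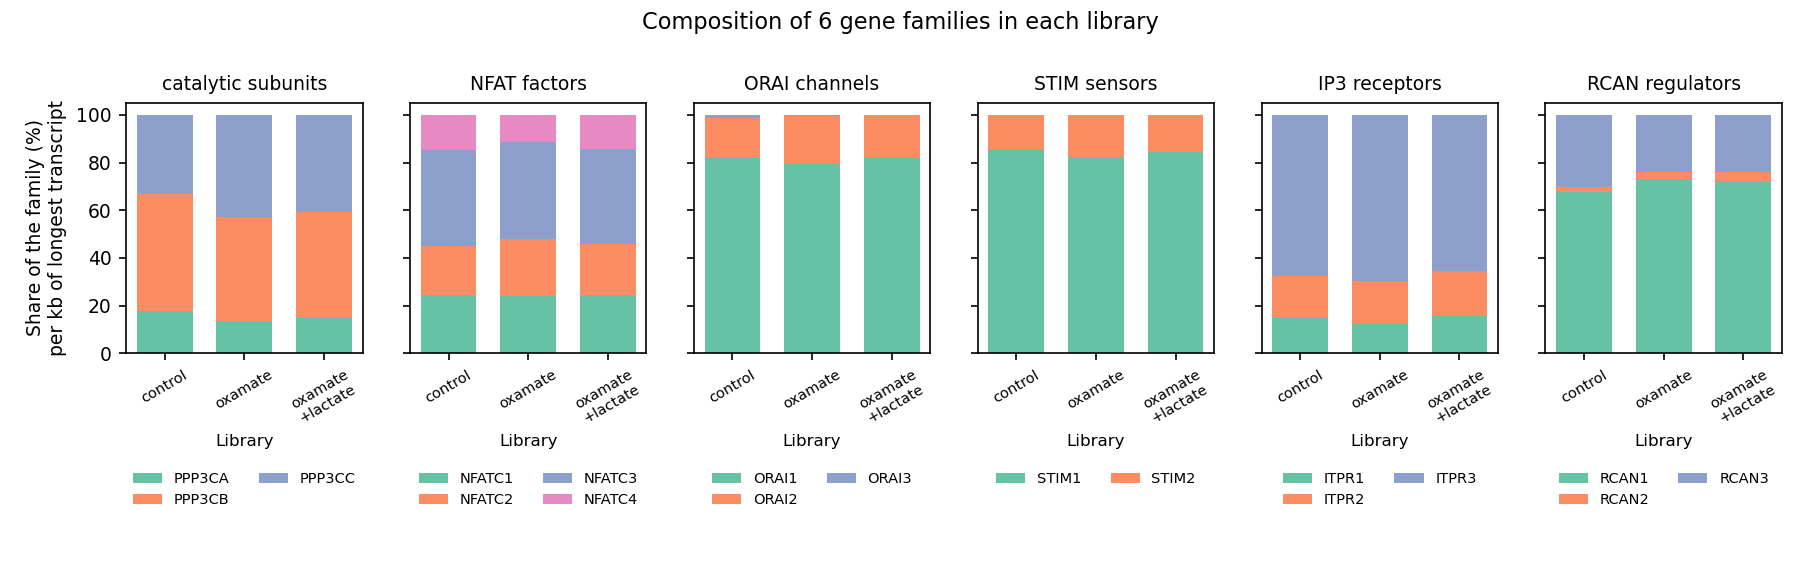
Share (%) of each gene in the summed value of its family, per kilobase of the longest transcript, with 1 stacked bar per library. PPP3CC had 33.4% in control and 42.9% in oxamate, while ORAI1, at 79.4% to 82.4%, and STIM1, at 82.5% to 85.3%, remained the main member of their family in each library.

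RCAN1, the feedback inhibitor of calcineurin, had 384 normalized counts in control, 445 with oxamate and 437 with oxamate+lactate. The treated libraries were both above control and close to each other, with ratios of 0.21 and 0.19 against control. A ratio of 0.21 was above that of 65.7% of genes. Its relative RCAN3 was lower instead, at 416, 351 and 348, a ratio of -0.24 for oxamate against control. RCAN3 shares 15.2% of its exon length with a noncoding gene on the opposite strand. RCAN2 was low, at 14, 23 and 27.

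Of the 3 NFAT factors among the 10 genes, NFATC2 had the highest ratio for oxamate against control. NFATC2, also known as NFAT1, had 470 normalized counts in control, 585 with oxamate and 485 with oxamate+lactate. Oxamate alone was the high library, with ratios of 0.32 against control and -0.27 for oxamate+lactate against oxamate, while oxamate+lactate and control were close, at 0.05. NFATC3, the most abundant factor of the set per kilobase, had 765, 828 and 759, and NFATC1, which activated T cells induce, had 352, 370 and 352. Ratios of 0.11 and 0.07 for oxamate against control put both genes near the median of all genes, and that of NFATC1 turned negative relative to that median, with equal sums and relative to genes of like GC content. Of the exon length of NFATC3, 31.8% is shared with an antisense gene and 15.7% with a gene on the same strand. NFATC4, a family member outside the 10 genes, was lowest in oxamate, at 253, 204 and 244, a ratio of -0.31 (-0.39 relative to the median of all genes and -0.51 relative to genes of like GC content). Of the sum of the 4 factors per kilobase, NFATC3 made up 40.2%, 40.7% and 39.9%, NFATC1 24.3%, 23.9% and 24.3%, NFATC2 20.8%, 24.2% and 21.5%, and NFATC4 14.8%, 11.1% and 14.3%. With merged exon length NFATC2 was above NFATC1 in each library, at 26.7%, 30.7% and 27.5% against 18.3%, 17.8% and 18.3%. By both lengths oxamate alone had the highest share of NFATC2 and the lowest of NFATC4.

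**Figure D3:**
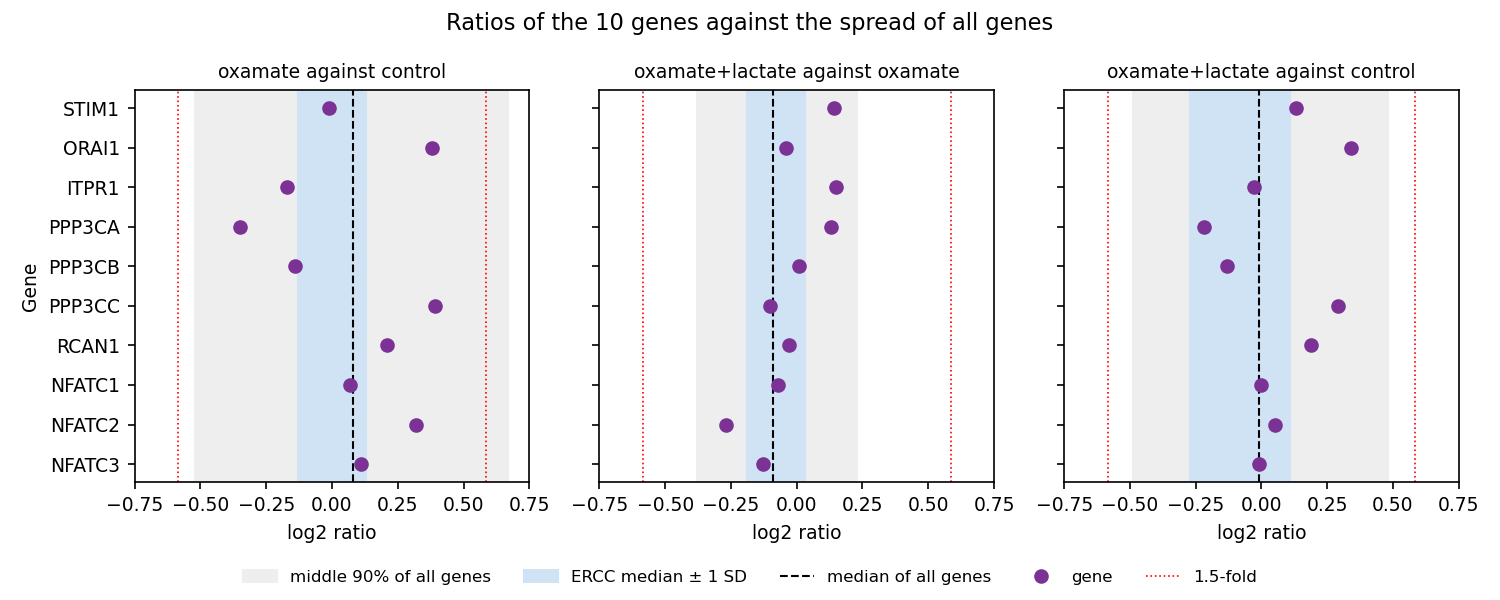
Log2 ratios of the 10 genes (points) in the 3 comparisons, over the middle 90% of the 12292 genes (grey), the median ± 1 SD of 18 ERCC RNAs averaging 100 or more (blue) and the median of all genes (dashed). All points lie in the grey band and inside the dotted lines at 1.5-fold.

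With lactate added to oxamate, 0 of the 10 genes reached 1.5-fold in either direction against oxamate alone, a size that 0.252% of all genes reached upward and 0.903% downward. At 1.2-fold, 0 genes were higher and 1, NFATC2, was lower, against 3.86% and 15.4% of all genes. The median ratio was -0.03, against -0.09 over all genes, and 7 of 10 lay above the median of all genes, as 50.0% of genes do. The lowest ratio was that of NFATC2, and the highest were 0.15 for ITPR1, 0.14 for STIM1 and 0.13 for PPP3CA. Ratios of ORAI1 (-0.04), RCAN1 (-0.03), NFATC1 (-0.07) and PPP3CC (-0.10) changed sign under at least 1 other scaling. For oxamate+lactate against control, ORAI1 and PPP3CC were 1.2-fold higher and 0 of 10 lower, against 15.4% and 16.7% of all genes, and 0 of 10 reached 1.5-fold, against 2.99% upward and 3.07% downward. The median there was 0.02, against -0.01 over all genes. These comparisons share libraries and are not independent of each other or of the first.

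GC content moved with the ratios of all genes, and the 10 genes span much of its range. Longest transcripts ran from a GC content of 41.0% for PPP3CB and 42.6% for PPP3CA to 60.2% for NFATC1 and 61.7% for ORAI1, and the median ratio of all genes for oxamate against control ran from -0.08 in the lowest twentieth of GC content to 0.29 in the highest. Relative to genes of like GC content, a correction added after the values were seen, the ratio of ORAI1 was 0.13 in place of 0.38 and that of STIM1 was -0.19 in place of -0.01. PPP3CC was at 0.32, NFATC2 at 0.20, RCAN1 at 0.19 and PPP3CA at -0.33. The part of GC content in the result for ORAI1 was not tested beyond this correction.

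**Figure D4:**
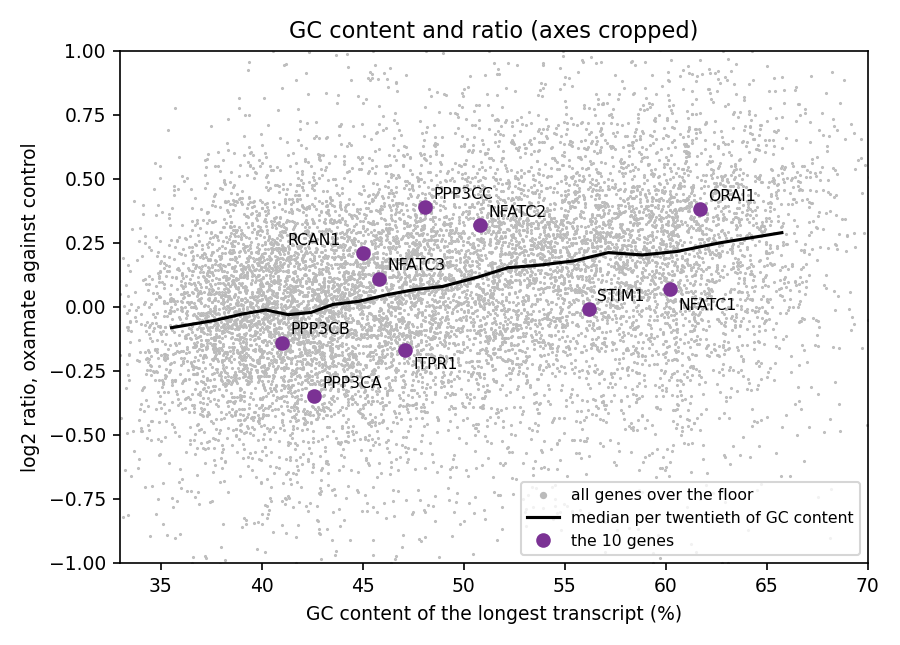
GC content of the longest transcript (%) against the log2 ratio of oxamate against control, for all genes over the floor (grey, cropped at ±1), with the median per twentieth of GC content (line) and the 10 genes (purple). ORAI1 lies near the high end of the line and 0.13 above it, while PPP3CC and PPP3CA lie 0.32 above and 0.33 below it.

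Levels per kilobase of longest transcript ordered the genes from the calcium channel down to the calcium release receptor. ORAI1 had a median of 351 over the 3 libraries (277 to 362) and STIM1 271 (269 to 296), and these ranges overlapped. RCAN1 at 155 (136 to 158) and PPP3CB at 134 (133 to 147) came next and overlapped as well, and so did PPP3CC at 122 (up to 131) and NFATC3 at 121 (120 to 131). NFATC1 at 73.0 overlapped NFATC2 at 64.5, and PPP3CA at 45.5 overlapped ITPR1 at 41.8. Ranges did not overlap at the steps between these pairs. Only the places of ORAI1, STIM1, PPP3CB and ITPR1 were the same with merged exon length, by which RCAN1 moved from the 3rd to the 6th place.

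Pathway genes outside the 10 were read from lists of calcineurin and NFAT regulators, of calcium handling, and of NFAT target genes. Of 20 calcium handling genes listed, 16 passed the floor, and in oxamate against control 4 were at least 1.5-fold higher and 0 lower, where 7.48% and 3.98% of all genes were, with a median ratio of 0.20 against 0.08 over all genes. The count higher was 2, KCNA3 and ORAI2, relative to the median of all genes and with equal sums. In these settings 5.16% and 4.63% of all genes were higher. It was 1, KCNA3, relative to genes of like GC content, against 3.46% of all genes. KCNA3, the potassium channel that keeps the membrane potential favourable for calcium entry, had 222 normalized counts in control, 410 with oxamate and 325 with oxamate+lactate (0.88 for oxamate against control). ORAI2, a second channel gene, had 595, 980 and 834 (0.72), and PLCG1, phospholipase C gamma 1, had 1981, 3100 and 2640 (0.65). The fourth was ATP2B4, a calcium pump of the plasma membrane, at 2391, 3605 and 2833 (0.59). In each of these 4 genes control was the lowest library and oxamate the highest, an order that picking genes by a high oxamate ratio makes likely. At the low end were ATP2B1, another such pump, at 417, 349 and 371 (-0.26), MCU, the mitochondrial calcium uniporter, at 265, 224 and 284 (-0.24), and SARAF, an inhibitor of STIM1, at 1101, 1011 and 1030 (-0.12).

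ORAI2 had the larger ratio but the smaller level: it made up 16.4% of the ORAI sum per kilobase in control, 19.9% with oxamate and 18.0% with oxamate+lactate. That sum was 336 in control, and 456 in oxamate and 430.0 in oxamate+lactate, a log2 ratio of 0.44 for oxamate against control, the highest of the 6 families computed. Family sums were not corrected for GC content. Relative to genes of like GC content the ratio was 0.13 for ORAI1 and 0.51 for ORAI2. ORAI3 had 9, 7 and 3 normalized counts. The 2 STIM genes summed to 317, 326 and 351, and STIM2 had 240, 294 and 279 normalized counts (0.29). Of the inositol trisphosphate receptors ITPR3 made up 67.7% of the family sum in control and ITPR1 15.3%, and ITPR3 shares 10.4% of its exon length with UQCC2. With merged exon length these shares were 77.2% and 5.46%, so that of ITPR1 depends strongly on the length used. ITPR2 had 542, 636 and 570, and ITPR3 had 1865, 2101 and 1700, so both were highest in oxamate where ITPR1 was lowest.

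Of the 20 regulators of calcineurin and NFAT, 19 passed the floor, 1 was at least 1.5-fold higher and 0 lower in oxamate, against the same 7.48% and 3.98% of all genes, and the median was 0.08. HOMER3, a scaffold protein that competes with calcineurin for NFAT, had 39, 84 and 90 normalized counts, a ratio of 1.09 for oxamate against control. It was low in control and shares 12.3% of its exon length with another coding gene. The kinases DYRK1A and GSK3A, which phosphorylate NFAT or prime it for export from the nucleus, had 1196, 1617 and 1410 (0.43) and 523, 698 and 589 (0.42). Toward the low end were NFATC4, described above, and HOMER2, a relative of HOMER3, at 453, 376 and 369 (-0.27).

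**Figure D5:**
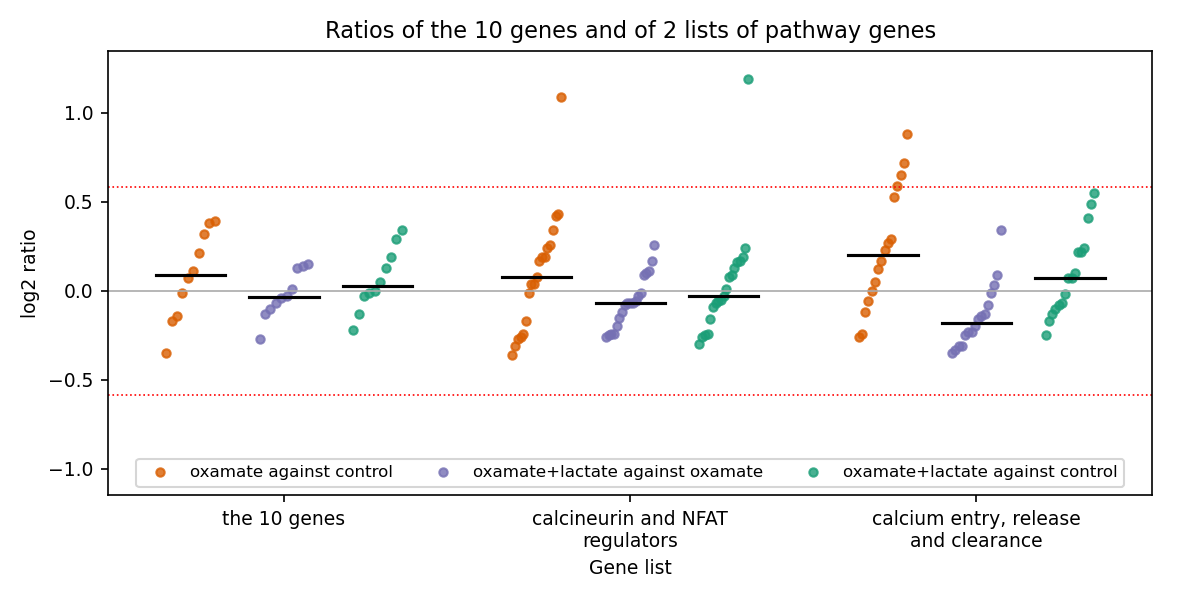
Log2 ratios of the 10 genes and of the genes over the floor in the 2 lists of regulators and of calcium handling, with 1 point per gene, the median as a black bar and 1.5-fold as dotted lines. HOMER3 is the point above 1 among the regulators, and 4 calcium handling genes lie at or above the upper line for oxamate against control.

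Target genes of NFAT had few values, and the labels name no stimulus of the cells. Of 16 listed, 4 had a value and 1 passed the floor. NR4A1, an orphan nuclear receptor, had 87 normalized counts in control, 119 with oxamate and 95 with oxamate+lactate (0.45 for oxamate against control). The others were named after their values were seen. The early growth response factor EGR3 had 1, 16 and 12, CD40LG, the ligand of CD40, had 15, 36 and 24, and the inhibitory receptor PDCD1 had 32, 18 and 26. EGR3 and CD40LG were thus higher and PDCD1 lower in oxamate than in control, at levels where a few reads decide the ratio. The other 12, IL2 and TNF among them, were not analysed here.

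The genes most like PPP3CC over the 3 libraries, by Euclidean distance between centred log2(value + 1), were KCTD12 at 509, 669 and 622, SLC2A1 at 762, 995 and 927, and METTL13 at 549, 714 and 669. PPP3CC was taken since its ratio was the largest in size of the 10 in the values as deposited, while relative to the median of all genes, with equal sums and relative to genes of like GC content that of PPP3CA was larger in size. With only 3 libraries the pattern is common, and 1018 genes lay within a distance of 0.1 of it.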

How the data were processed

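Polyadenylated RNA of 3 Jurkat cultures was sequenced from unstranded libraries, per the labels' protocols. The submitters' processing notes name hg19 as build and, among tools, HTSeq 0.11.2, STAR 2.7.1a and FastQC 0.11.9. The deposited values, called normalized counts, are whole numbers in 1 column per library and were taken as a score that the authors derived from read counts. How they were normalized is not stated, so they entered no count model and the depth is unknown.

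Samples were grouped by treatment label, 1 library each. Ratios, with a pseudocount of 1, were computed with Python 3.11.15 and pandas 2.3.3 for genes with a mean of at least 50, and tested on simulated data. The members and gene lists were chosen with earlier results of these data known. Named genes are all 10 members, the genes over the floor with the 3 highest and 3 lowest oxamate ratios in each pathway list, and the 3 genes most like the member with the largest ratio. Some genes that this rule or the lists name are not reported here. Transcript length, GC content and exon overlap were taken from GENCODE 29, built on GRCh38 and not on hg19, and are approximate. All 10 members and 91.1% of genes over the floor were matched. Promoter windows came from RefSeq. Alternatives were a pseudocount of 10, 3 other scalings, a floor of 200 and no floor, and, added after seeing the data, a GC correction, merged exon length and a fold of 1.2.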

Additional observations from a re-analysis of the deposited data

How the results depend on the processing

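The 1.5-fold counts of 0 stood in each comparison under every alternative tried, while the medians of the 10 genes changed sign in 2 comparisons. They ran from -0.02 to 0.10 for oxamate against control and from -0.03 to 0.08 for oxamate+lactate against oxamate, and for oxamate+lactate against control from 0.02 to 0.09. Counts at 1.2-fold, chosen after the values were seen, did depend on scaling. In oxamate against control, 2 of the 10 genes in place of 1 were lower with equal sums over genes, and in place of 3 higher there were 2 relative to the median of all genes and with equal sums, and 1 relative to genes of like GC content. For oxamate+lactate against oxamate, 0 in place of 1 were lower relative to the median of all genes, with equal sums over genes, with equal ERCC sums and relative to genes of like GC content, and with the last 1 in place of 0 was higher. For oxamate+lactate against control, 1 in place of 2 was higher relative to genes of like GC content. Shares of all genes at 1.2-fold were computed only for the values as deposited, so these changes have no share beside them. The share of all genes at least 1.5-fold higher in oxamate against control also moved with scaling. It was 7.48% as deposited, 5.16% relative to the median of all genes, 4.63% with equal sums and 3.46% with the GC correction. Equal sums over genes moved the median of all genes by -0.10 for oxamate against control and 0.11 for oxamate+lactate against oxamate. No paired analysis was possible because each condition had 1 library. The depth is unknown, so what it limits cannot be stated in reads.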
